A study of Homo sapiens with 48 samples.

Results

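A group of 6 human genes that make up or modulate the heat shock factor family was followed in 8 cancer cell lines treated with carfilzomib. They are the transcription factors HSF1, HSF2 and HSF4, the heat shock factor binding proteins HSBP1 and HSBP1L1, and IER5, a partner of HSF1. They were taken by symbol from the deposited matrix of raw gene counts, where they hold 7 of 33892 rows and 6 of 31037 gene identifiers. The lines, all established and grown in standard dish culture, were RKO and DLD-1 from colon cancer, H-23 and H-1299 from lung cancer, PANC-1 and CAPAN-2 from pancreatic cancer, and H-929 and RPMI from multiple myeloma. Each line received carfilzomib, an irreversible proteasome inhibitor, for 24 h at that line's IC50 for proteasome activity, or the solvent DMSO as its control. Each of the 16 groups had 3 biological replicates, giving 48 libraries of 9.12 to 64.4 M (mega) counts. Doses were set per line and are not analysed here.

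Heat shock factors are transcription factors that switch on chaperone genes when misfolded proteins accumulate. HSF1, the main one, is held inactive by HSP70, HSP90 and their J-domain partners. Once chaperones are drawn away by misfolded proteins, HSF1 forms trimers on inverted repeats of the letters GAA in chaperone promoters. HSF2 can join HSF1 in mixed trimers, and its protein is short-lived and removed by the proteasome. HSF4 is best known as a factor of the eye lens. HSBP1 is a small coiled-coil protein that binds heat shock factor trimers, and HSBP1L1 is its paralog. IER5, an immediate early gene product, brings the phosphatase PP2A to HSF1, and its gene is itself a known target of both HSF1 and p53.

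The members did not respond as a block. IER5 rose in 4 lines, by up to 15.8-fold in H-929, and HSF2 rose in 5 lines, by up to 2.68-fold in H-1299. The HSF2 calls in H-23 and PANC-1 were small and were lost in a joint fit of all libraries. HSF4 rose in 3 lines, HSBP1L1 in 2 and HSBP1 in 1. HSBP1 and HSBP1L1 fell in RPMI, the latter on 2 to 50 counts per library, and IER5 fell in H-1299. HSF1 is described by its counts, which were too uneven to follow. Over the 5 members with 1 row each, 15 of 40 tests in single lines were called higher and 3 were called lower at an adjusted p under 0.05 in edgeR's quasi-likelihood test. Over all genes and lines, 20.8% of such tests were called higher and 21.1% lower.

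Promoter sequence is shown for IER5 because its induction was the largest, beside its paralog IER5L and DNAJB1, a J-domain chaperone gene controlled by HSF1. The letters are the 250 bases before the annotated start, 5′ to 3′, from RefSeq on GRCh38.p14. Capitals mark a pair of inverted GAA units, GAANNTTC or TTCNNGAA, searched over both strands with overlaps allowed. IER5 lies on the plus strand (chr1:181088450-181088699), IER5L on the minus strand (chr9:129178262-129178511) and DNAJB1 on the minus strand (chr19:14518398-14518647, 1 of its RefSeq starts).
IER5: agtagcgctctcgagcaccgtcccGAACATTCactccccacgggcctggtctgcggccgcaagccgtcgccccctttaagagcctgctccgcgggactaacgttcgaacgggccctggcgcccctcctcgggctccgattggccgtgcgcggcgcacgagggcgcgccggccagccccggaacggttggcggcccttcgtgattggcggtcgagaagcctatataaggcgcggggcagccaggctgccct
IER5L: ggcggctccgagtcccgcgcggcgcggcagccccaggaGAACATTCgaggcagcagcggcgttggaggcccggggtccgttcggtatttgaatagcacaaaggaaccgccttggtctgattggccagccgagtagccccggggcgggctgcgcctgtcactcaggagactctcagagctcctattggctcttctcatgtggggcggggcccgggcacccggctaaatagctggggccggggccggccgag
DNAJB1: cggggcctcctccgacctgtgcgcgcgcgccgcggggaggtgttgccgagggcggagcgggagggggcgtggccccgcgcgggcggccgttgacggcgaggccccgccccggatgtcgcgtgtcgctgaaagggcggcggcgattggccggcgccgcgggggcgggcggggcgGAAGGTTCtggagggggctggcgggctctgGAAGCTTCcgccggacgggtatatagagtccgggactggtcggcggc
The pair GAACATTC began 226 bases before the IER5 start and the same letters began 212 bases before the IER5L start. DNAJB1 held 2 pairs, beginning 77 and 47 bases before its start. No pair was found in the windows of IER2, another relative of IER5, of the heat shock genes BAG3 and HSPH1, or of the other DNAJB1 starts. HSPA1A, HSPA1B, HSPA6, HSPA8, HSP90AA1 and HSP90AB1 each had a window that held the pair.

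RefSeq gave 7 such windows for 5 of the 6 members, and 1 of them, that of IER5, held the pair. The windows of HSF2, HSF4, HSBP1 and HSBP1L1 did not contain these letters. Of 35116 windows of the same length, 4067 held a pair (11.6%), and 155 (0.441%) held a stretch in which both patterns overlap. The HSPA6 window, that of a strictly stress-inducible HSP70, was among the latter. A match of letters is a description of the sequence and not a measured binding site.

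**Figure D1:**
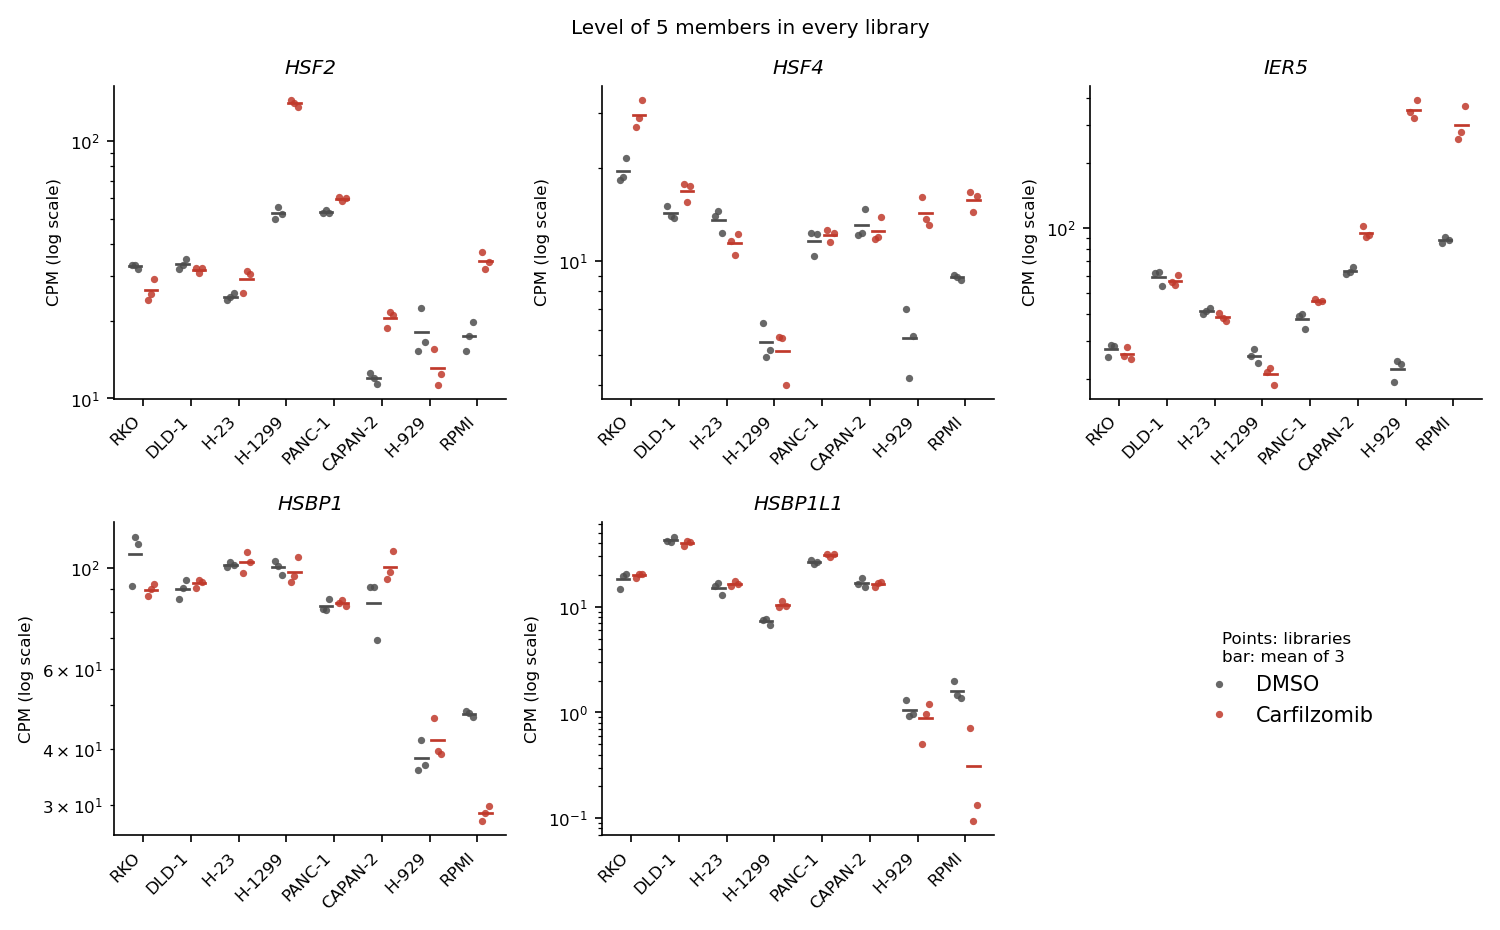
Counts scaled to M (mega) counts of the library (CPM, log axis) of HSF2, HSF4, IER5, HSBP1 and HSBP1L1 in each library, by cell line, with DMSO in grey and carfilzomib in red; bars mark the mean of 3 libraries, and CPM was scaled within each line. IER5 in H-929 moved from 22.3 to 352 CPM, and HSBP1L1 lay near 1 CPM in both myeloma lines.

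Before treatment, the level of each of the 5 members differed between the lines, in a matrix where 97.6% of genes did so by the same F test. The levels in this paragraph are CPM scaled over all 48 libraries, given as the mean of 3 DMSO libraries. HSBP1L1 spanned the widest range, 36.8-fold, from 42.1 ± 2.23 (SD) in DLD-1 to 1.14 ± 0.236 in H-929. RPMI had 1.79 ± 0.345, so both myeloma lines lay below the 7.91 ± 0.569 of H-1299, the lowest of the carcinoma lines. HSBP1 showed the same split over a narrower 2.66-fold range, with 40.98 ± 3.86 in H-929 and 53.8 ± 0.178 in RPMI against 81.7 ± 2.69 to 109 ± 4.83 in the carcinoma lines. The values of RKO, H-23, CAPAN-2, DLD-1 and PANC-1 overlapped from each neighbour to the next in the HSBP1 order.

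HSF2 was highest in H-1299 (56.9 ± 2.71 CPM) and PANC-1 (52.6 ± 0.796 CPM) and lowest in CAPAN-2 (12.97 ± 0.561 CPM). Its levels in H-23, RPMI and H-929, neighbours in that order, overlapped. HSF4 ran from 17.5 ± 1.97 CPM in RKO to 5.95 ± 0.901 CPM in H-1299, and H-929 (6.07 ± 1.47 CPM) overlapped with H-1299. IER5 was highest in RPMI (99.1 ± 3.98 CPM), then CAPAN-2 (68.2 ± 2.95 CPM) and DLD-1 (57.7 ± 5.03 CPM). H-1299, RKO and H-929 formed the overlapping low end of the IER5 order, with H-929 at 23.9 ± 2.78 CPM. The myeloma lines therefore stood at opposite ends for IER5 before treatment.

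Per length of exon sequence, the median DMSO level over the lines was 9.57 CPM per kb for HSF2, 8.90 for IER5, 7.32 for HSBP1L1 and 3.53 for HSF4. The HSBP1 value, 9.36 CPM per kb, depends on its annotated exons, a 9525-base union of 3 blocks most of which some transcripts lack, and is uncertain.

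Markers of plasma cells (SDC1, TNFRSF17, IRF4, PRDM1, XBP1, CD38 and JCHAIN) were all at 1 CPM or more in the DMSO libraries of H-929 and RPMI. Their summed level was 11890 CPM in H-929 and 6303 CPM in RPMI, and at most 558 CPM in any other line. Epithelial markers (EPCAM, KRT8, KRT18, KRT19 and CDH1) summed to 14230 CPM in CAPAN-2 and only 136 CPM in RKO. The myeloma line RPMI had 225 CPM, so this list does not separate RKO from the myeloma lines. The lung markers NAPSA and SFTPB summed to 3.98 CPM in H-23 and 1.21 CPM in H-1299, so they do not mark these lines as lung, and to 42.2 CPM in H-929. The colon markers CDX1, CDX2 and VIL1 summed to 121 CPM in DLD-1 and 21.7 CPM in RKO. The pancreatic markers PDX1, GATA6 and SOX9 summed to 75.1 CPM in CAPAN-2 and 67.01 CPM in PANC-1, but to 308 CPM in DLD-1. In bulk RNA, fewer cells expressing a gene and less RNA of it per cell cannot be told apart.

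HSF2 (ENSG00000025156, chr6:122399546-122433119, plus strand, GRCh38, 13 exon blocks in GENCODE 29) showed its largest rise in H-1299. CPM here and in the rest of the text is scaled within the line. The DMSO libraries of H-1299 held 49.7, 55.5 and 52.1 CPM and the carfilzomib libraries 144, 141 and 136 CPM. The groups were far apart, with a log2 fold change of 1.42 ± 0.051 (SE; adjusted p 2.38e-10). HSF2 was number 344 of 16495 genes from the top in that line. In RPMI it went from 15.2, 17.4 and 19.8 CPM to 37.1, 31.9 and 33.97 CPM, a 1.95-fold rise (adjusted p 1.34e-06).

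CAPAN-2, the line with the least HSF2 at baseline, moved from 12.5, 12.01 and 11.4 CPM to 18.8, 21.8 and 21.2 CPM. The groups did not overlap and the log2 fold change was 0.78 ± 0.086 (adjusted p 2.64e-06). PANC-1 showed a small rise from 52.8, 53.9 and 52.5 to 60.8, 58.8 and 60.1 CPM (log2 fold change 0.17 ± 0.039, adjusted p 0.00308), a call that was lost in one joint fit of all libraries (adjusted p 0.218). In H-23 the groups overlapped, at 24.1, 24.8 and 25.7 CPM against 25.7, 31.4 and 30.5 CPM. That call (0.24, adjusted p 0.0195) was lost when any of DMSO replicates 1 and 2 or carfilzomib replicates 2 and 3 was left out, with values of 0.18 to 0.23, and in the joint fit (0.21, adjusted p 0.109).

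HSF2 was not called in the remaining lines by the fits of single lines. DLD-1 was at 33.2 ± 1.46 CPM with DMSO and 31.7 ± 0.791 CPM with carfilzomib (SD, n = 3), a log2 fold change of -0.07 with a normal 95% interval from -0.18 to 0.04. RKO gave -0.31 (adjusted p 0.0551), and passed the threshold at -0.39 without carfilzomib replicate 3 (adjusted p 0.0483) and at -0.31 with no filter (adjusted p 0.0367). H-929 gave -0.47 (adjusted p 0.0503), from 15.3, 22.6 and 16.6 CPM to 15.6, 11.3 and 12.5 CPM. In the joint fit it was called lower (-0.63, adjusted p 3.38e-05), as it was with no filter (-0.54, adjusted p 0.0110). In single-line fits it passed at -0.59 without DMSO replicate 1 (adjusted p 0.0311) and at -0.64 without carfilzomib replicate 1 (adjusted p 0.0226), and stood at -0.28 without DMSO replicate 2 (adjusted p 0.286). In H-929, HSBP1 and HSBP1L1, neither called, also stood lower in the joint fit than in that line's own fit. HSBP1 was at -0.03 against 0.13, and HSBP1L1 at -0.43 against -0.26. The rises of IER5 and HSF4 in H-929 were also smaller on the scaling over all 48 libraries, which the joint fit used. IER5 went from 23.9 to 339.5 CPM, against 22.3 to 352 CPM within the line. HSF4 went from 6.07 to 13.8 CPM, against 5.66 to 14.3 CPM within the line. With no filter, HSBP1 in H-929 was at 0.05. The part of scaling in these HSF2 values was not tested.

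The response of HSF2 differed between the lines (F 45.7, adjusted p 7.73e-17), as did that of 67.7% of all genes. The F was 24.8 without H-1299 and 70.6 without H-929, both past the threshold. Within tumour types, its log2 fold change was 1.14 ± 0.12 higher in H-1299 than in H-23 (adjusted p 5.26e-10). It was 0.63 ± 0.13 higher in CAPAN-2 than in PANC-1 (adjusted p 1.90e-04), and lower in H-929 than in RPMI (difference -1.497 ± 0.16, adjusted p 9.23e-11). RKO and DLD-1 did not differ detectably, with a difference of -0.23 and a 95% interval from -0.50 to 0.04. Such differences were called for 30.8% of genes in the lung pair, 24.9% in the pancreatic pair, 40.5% in the myeloma pair and 4.05% in the colon pair.

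**Figure D2:**
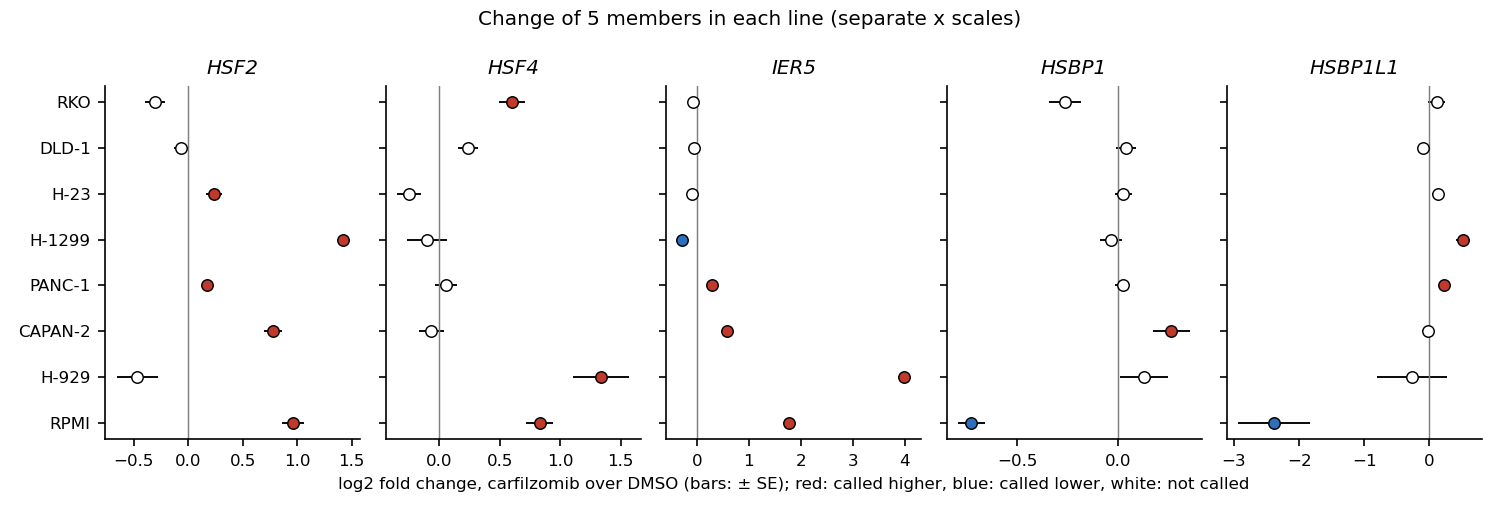
Log2 fold change of carfilzomib over DMSO (x axis, a separate scale per gene) for 5 members in the 8 lines (y axis), with bars of 1 SE; red points were called higher, blue lower and white not called. HSF2 has 5 red points, the farthest at 1.42 in H-1299, and HSBP1 and HSBP1L1 have their blue points in RPMI.

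HSF4 (ENSG00000102878, chr16:67164681-67169945, plus strand, 9 exon blocks) rose in RKO, H-929 and RPMI. RKO held 18.3, 18.7 and 21.6 CPM with DMSO and 27.1, 29.04 and 33.1 CPM with carfilzomib. These groups did not overlap (log2 fold change 0.60 ± 0.11, adjusted p 0.00429). H-929 moved from 6.997, 4.22 and 5.75 CPM to 16.1, 13.7 and 13.1 CPM, a 2.53-fold rise (log2 1.34 ± 0.23, adjusted p 2.16e-04). RPMI moved from 9.01, 8.93 and 8.69 CPM to 16.8, 14.4 and 16.2 CPM (log2 0.83 ± 0.11, adjusted p 1.75e-05). Scaled over all 48 libraries, the treated myeloma lines stood at 13.8 ± 1.65 and 16.8 ± 1.26 CPM, within the carcinoma lines' range of 5.31 to 26.7 CPM.

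HSF4 in DLD-1 (0.24, adjusted p 0.0574) and H-23 (-0.25, adjusted p 0.0638) missed the threshold. The DLD-1 value passed without carfilzomib replicate 2 (adjusted p 0.0458), and the H-23 value passed without DMSO replicate 3 (adjusted p 0.0332). Both also passed with library totals (adjusted p 0.0318 and 0.0441) and with a mean of at least 50 counts (0.0432 and 0.0471). H-1299, PANC-1 and CAPAN-2 gave values between -0.10 and 0.06, none called. The lines differed in their HSF4 response (F 12.9, adjusted p 2.62e-08), but no pair of lines within a tumour type passed. The myeloma difference was 0.44 with a 95% interval from 0.04 to 0.84 (adjusted p 0.0850). It passed with DESeq2's size factors (0.52, adjusted p 0.0356), library totals (0.52, adjusted p 0.0379) and a mean of at least 50 counts (0.53, adjusted p 0.0237).

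Exons of HSF4 share 1059 bases with the same-strand gene model AC074143.1, so its counts may include reads that do not belong to it alone. FBXL8, the neighbour before HSF4 on the chromosome, was looked at after the HSF4 values were seen. It was at 1.06 in H-929 (adjusted p 0.00651) and 0.43 in RPMI (adjusted p 0.00855) on the log2 scale. In RKO it was at 0.23 (adjusted p 0.578). It was lower in H-1299 (-0.67, adjusted p 0.00439) and PANC-1 (-0.36, adjusted p 0.0142), where HSF4 was not called. Its part in the HSF4 result was not tested.

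HSBP1 (ENSG00000230989, chr16:83807843-83819737, plus strand) was called in 2 lines, in opposite directions. Its larger change was in RPMI, where 48.4, 47.9 and 46.9 CPM with DMSO stood against 27.7, 28.8 and 29.95 CPM with carfilzomib. The groups were well apart, with a log2 fold change of -0.73 ± 0.066 (adjusted p 3.61e-07). In CAPAN-2, HSBP1 went from 90.7, 90.7 and 69.3 CPM to 94.5, 97.8 and 109 CPM (0.26 ± 0.092, adjusted p 0.0251). DMSO replicate 3 lay below its partners, and without it the value was 0.15 (adjusted p 0.0556). Without carfilzomib replicate 3 it was 0.21 (adjusted p 0.113).

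Of the 6 lines where HSBP1 was not called, RKO was nearest to the threshold (-0.26, adjusted p 0.0580). DMSO replicate 1 of RKO, at 91.3 CPM, lay among the carfilzomib values, and the fall passed without it (-0.36, adjusted p 0.00167). It also passed with the replicate block (-0.25, adjusted p 0.0267), by DESeq2 (adjusted p 0.0180), with no filter (7.57e-04), in the joint fit (0.0329) and with shared identifiers summed (0.0497). H-23, H-1299, PANC-1 and DLD-1 had values between -0.03 and 0.04. In H-929 the value was 0.13 with a 95% interval from -0.10 to 0.36. The myeloma lines differed in their HSBP1 response by 0.78 ± 0.13 (adjusted p 2.22e-06), and the other 3 pairs did not pass. The colon difference passed with a mean of at least 50 counts (-0.33, adjusted p 0.046). The pancreatic one passed without replicates numbered 1 (0.38, adjusted p 0.0215). Over all lines the F was 14.95 (adjusted p 3.38e-09), and without RPMI it was 4.16 (adjusted p 0.00471).

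HSBP1L1 (ENSG00000226742, chr18:79964561-79970822, plus strand, 4 exon blocks) rose in H-1299 and PANC-1. H-1299 moved from 7.46, 7.67 and 6.72 CPM to 9.97, 11.3 and 10.1 CPM (log2 0.52 ± 0.11, adjusted p 8.93e-04). PANC-1 moved from 27.7, 25.5 and 26.7 CPM to 31.8, 29.7 and 31.6 CPM (0.22 ± 0.052, adjusted p 0.00462), a call lost in the joint fit (0.21, adjusted p 0.293). Neither pair of groups overlapped. In DLD-1, where the gene was most abundant, it was at 43.1 ± 2.52 and 40.3 ± 2.14 CPM and was not called (-0.10, adjusted p 0.310).

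In RPMI, HSBP1L1 fell from a level that was already low. The DMSO libraries held 34, 41 and 50 counts and the carfilzomib libraries 13, 2 and 3 counts. The fall passed the test (log2 -2.38 ± 0.55, adjusted p 0.00183). The gene passed the filter on low counts through its DMSO libraries, where it was high, so the call adds little to the counts themselves. Without carfilzomib replicate 1, the highest of its group, the value was -3.73, so the size of the fall rests on few counts. H-929 held 23, 17 and 14 counts with DMSO and 5, 9 and 11 with carfilzomib in shallower libraries, and gave -0.26 with a 95% interval from -1.32 to 0.79. The lines differed in their HSBP1L1 response (F 10.8, adjusted p 2.39e-07), less so without RPMI (F 3.31, adjusted p 0.0169). The difference between the myeloma lines was 2.03 ± 0.51 (adjusted p 0.00119), and it was lost without replicates numbered 2 (1.47, adjusted p 0.0856) or 3 (1.35, adjusted p 0.131). Exons of HSBP1L1 share 12 bases with TXNL4A on the opposite strand, and whether counting used the strand is not given in the sources used here.

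IER5 (ENSG00000162783, chr1:181088712-181092899, plus strand, a single exon of 4188 bases) had the largest change of any member. In H-929 the DMSO libraries held 19.4, 24.1 and 23.3 CPM and the carfilzomib libraries 344, 324 and 389 CPM. The log2 fold change was 3.98 ± 0.11 (adjusted p 3.40e-12), number 330 of 15676 genes from the top. RPMI moved from 85.3, 90.8 and 87.7 CPM to 256, 277 and 366 CPM, a 3.41-fold rise (log2 1.77 ± 0.10, adjusted p 5.01e-09). On the scaling over all 48 libraries, the treated levels were 339.5 ± 30.5 CPM in H-929 and 319.7 ± 63.0 CPM in RPMI. The myeloma line with the least IER5 under DMSO thus reached about the level of the one with the most.

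Smaller rises of IER5 were seen in both pancreatic lines. CAPAN-2 moved from 61.0, 62.4 and 66.0 CPM to 101, 90.6 and 92.5 CPM (log2 0.59 ± 0.062, adjusted p 1.64e-06). PANC-1 moved from 39.1, 39.95 and 34.02 CPM to 46.9, 45.5 and 45.5 CPM (0.29 ± 0.059, adjusted p 0.00172). In H-1299, IER5 fell from 25.4, 27.5 and 23.6 CPM to 21.6, 22.5 and 18.8 CPM (-0.28 ± 0.087, adjusted p 0.0136). The H-1299 groups lay close together, and the call was lost without carfilzomib replicate 3 (-0.21, adjusted p 0.0565).

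No change of IER5 was detected in RKO, DLD-1 and H-23. Their 95% intervals ran from -0.26 to 0.11, from -0.19 to 0.07 and from -0.20 to 0.00 on the log2 scale. The IER5 response differed between the lines with the largest F of the 5 members (204, adjusted p 5.11e-28), and without H-929 the F was 66.0 (adjusted p 3.14e-17). H-929 exceeded RPMI by 2.14 ± 0.13 (adjusted p 8.46e-18). CAPAN-2 exceeded PANC-1 by 0.32 without passing (adjusted p 0.0534), and with the replicate number as a block it passed (0.32, adjusted p 0.0460). It also passed with no filter (0.32, adjusted p 0.0483) and without replicates numbered 3 (0.41, adjusted p 0.0058). The lung pair (-0.22, adjusted p 0.231) and the colon pair (-0.02, adjusted p 1.00) did not pass.

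IER2 and IER5L are relatives of IER5 that share its conserved start. Like IER5, both rose in the myeloma lines. IER5L moved from 28.7 ± 1.51 to 162 ± 24.4 CPM in H-929 (log2 2.50) and from 8.91 ± 0.783 to 77.9 ± 14.7 CPM in RPMI (log2 3.12). IER2 was at 1.00 in H-929 and 1.01 in RPMI. In H-1299 all 3 genes fell. IER5L fell in 4 carcinoma lines, H-23 (-0.48), H-1299 (-1.62), PANC-1 (-0.39) and CAPAN-2 (-0.56), although IER5 rose in both pancreatic ones. IER2 fell in H-1299 (-1.26) and RKO (-0.15), and rose in H-23 (0.15) and PANC-1 (0.13). IER3, whose name is shared but whose protein belongs to another family, had several rows under 1 identifier and is left out as uncertain.

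**Figure D3:**
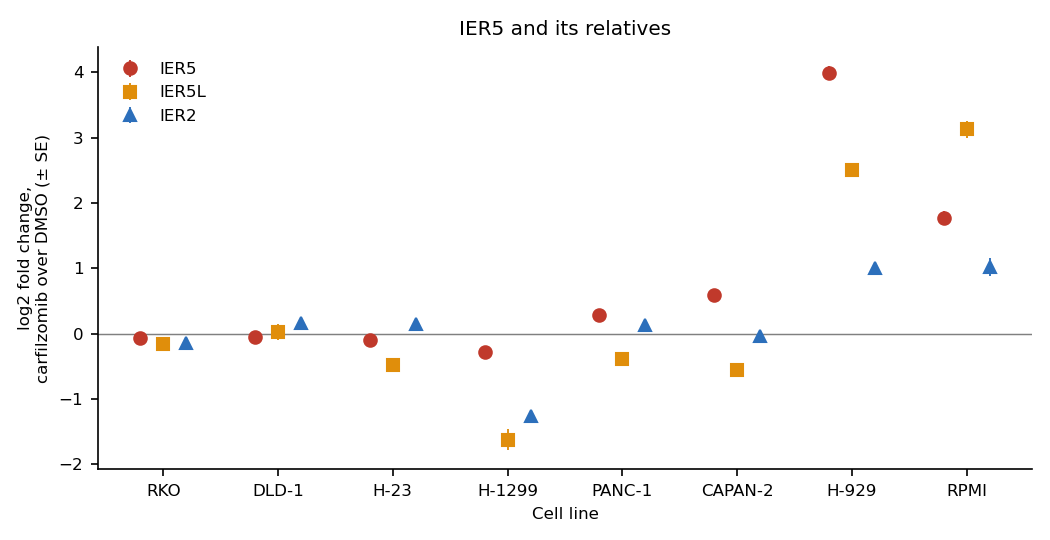
Log2 fold change of carfilzomib over DMSO (y axis, bars of 1 SE) for IER5, IER5L and IER2 in each cell line (x axis). All 3 genes lie between 1.00 and 3.98 in H-929 and RPMI and all 3 lie below 0 in H-1299.

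HSF1 itself could not be measured with confidence. The matrix has 2 rows for it, named HSF1 and HSF1-2, both under the identifier ENSG00000284774, whereas GENCODE 29 lists the gene as ENSG00000185122. The first row held 6 counts over all 48 libraries. The second held 2 to 874 counts and scattered within groups. In H-23 its DMSO libraries held 486, 105 and 21 counts, and in PANC-1 they held 19, 137 and 20 counts. In the same H-23 libraries IER5 held 1683, 1135 and 2339 counts, in step with their depth.

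The second HSF1 row was called higher in CAPAN-2, with 112, 145 and 18 counts under DMSO and 268, 874 and 214 counts under carfilzomib (log2 2.45 ± 0.58, adjusted p 0.00255). It was called lower in H-23 (-2.63, adjusted p 0.0204) and PANC-1 (-1.85, adjusted p 0.0403), although the groups overlapped in both. Without DMSO replicate 1 the H-23 value was -1.23 (adjusted p 0.214), and without DMSO replicate 2 the PANC-1 value was -0.24 (adjusted p 0.675). The Wald test of DESeq2 did not call either of them (adjusted p 0.0852 and 0.129). In H-929 it was not called (-0.31), but was at -2.41 (adjusted p 0.00585) without carfilzomib replicate 1. The row did not pass the filter on low counts in RPMI. These values describe the rows and are not taken as the level of HSF1 messenger RNA.

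**Figure D4:**
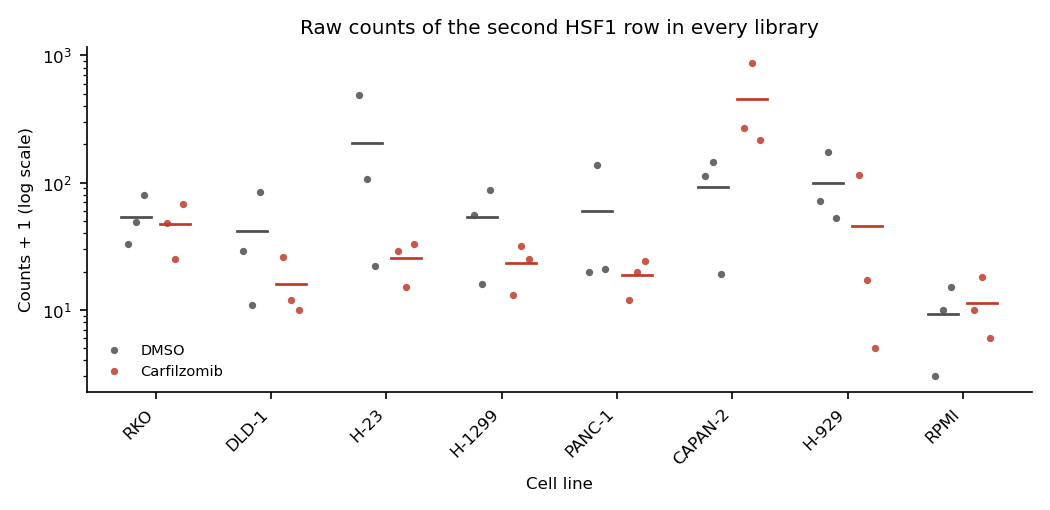
Raw counts plus 1 (log axis) of the second HSF1 row in each library, by cell line, with DMSO in grey and carfilzomib in red; bars mark the mean of 3 libraries. Replicates of 1 group differ widely, as in the DMSO libraries of H-23 with 486, 105 and 21 counts.

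The calls by line are set beside the share of all genes called in that line. In RKO, HSF4 was the single call among the 5 members by edgeR, while DESeq2 also called HSBP1 lower, where 3.61% of all genes tested were called higher and 5.28% lower. In DLD-1 no member was called by edgeR or by DESeq2, where 10.9% of genes were called higher and 12.1% lower, and 1 member (HSF4) had an unadjusted p under 0.05. The 5 changes in DLD-1 lay between -0.10 and 0.24 on the log2 scale. In H-23, HSF2 was the single call, where 17.7% were higher and 16.2% lower. With 5 members a line, these counts are not distinguished from the background.

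The other lines had more calls among members and among all genes. H-1299 had 2 higher and 1 lower (29.9% and 31.3% of all genes), and PANC-1 had 3 calls, all higher (20.5% of genes higher and 18.2% lower). CAPAN-2 had 3, all higher (25.7% and 26.8%), and H-929 had 2, both higher (26.1% and 26.6%). RPMI was the line in which all 5 members were called, 3 higher and 2 lower, against 31.3% and 32.2% of all genes. The lower call of HSBP1L1 there rests on few counts and on a filter passed through the DMSO libraries.

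Averaged over the 8 lines in 1 joint fit, 3 of the 5 members were called higher, where 19.8% of genes were, and 2 lower, where 23.9% were. IER5 averaged 0.72 ± 0.034, HSF2 0.30 ± 0.035 and HSF4 0.29 ± 0.048, with adjusted p of 3.77e-23, 3.94e-10 and 1.10e-06. Single lines carried much of these averages: without H-929, IER5 averaged 0.28 and HSF4 0.16, and without H-1299, HSF2 averaged 0.15, all still called. HSBP1L1 averaged -0.26 ± 0.074 (adjusted p 0.00249) and HSBP1 -0.11 ± 0.028 (adjusted p 0.00128). Without RPMI these became 0.05 (adjusted p 0.664) and -0.01 (adjusted p 0.911). The SE of an average reflects replicates within groups and not how lines vary. With the 8 lines as the units in limma, no member was called (adjusted p 0.460 to 0.692) and no member had an unadjusted p under 0.05.

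The chaperone genes that HSF1 controls give the context in which the members moved. Of 25 such genes, tested where expressed, 23 of 24 rose in H-1299 (29.9% of all genes did) and 20 of 25 in CAPAN-2 (25.7%). In RPMI 19 of 25 rose and 3 fell (31.3% and 32.2% of all genes), and in H-929 16 of 24 rose and 4 fell (26.1% and 26.6%). In PANC-1 16 of 25 rose and 2 fell (20.5% and 18.2%), and in H-23 15 of 24 rose and 2 fell (17.7% and 16.2%). In RKO 14 of 23 fell (5.28% of all genes), and in DLD-1 13 of 25 fell and 2 rose (12.1% and 10.9%). The median log2 change of the list was 0.81 in H-1299, 0.83 in RPMI, 0.71 in H-929 and 0.55 in CAPAN-2, beside medians of all genes between -0.02 and 0.02. It was 0.24 in PANC-1, 0.14 in H-23, -0.21 in DLD-1 and -0.35 in RKO.

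The summed rows of HSPA1A and HSPA1B, the inducible HSP70 genes, were called higher in 5 lines. They went from 0.517 ± 0.301 to 421 ± 51.3 CPM in H-929 and from 2.23 ± 1.10 to 508 ± 85.2 CPM in RPMI. They reached 485 ± 241 CPM in H-1299 and 28.97 ± 11.7 CPM in CAPAN-2. In H-23 they went from 6.25 ± 0.470 to 26.7 ± 13 CPM (log2 2.13), and they were not called in RKO, DLD-1 and PANC-1. HSPA6 rose in each of the 7 lines where it was tested, by 2.18 on the log2 scale in DLD-1 to 8.02 in RPMI. DNAJB1 rose in 5 lines, most in H-929 (4.76), and fell in RKO (-0.59) and DLD-1 (-0.41).

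Set beside these, the members sort into different line patterns. HSF2 rose in H-23, H-1299, CAPAN-2 and RPMI, where the HSPA1A and HSPA1B sum was also called higher, and in PANC-1, where it was not. H-929 is the exception, with the largest HSPA1A and HSPA1B rise (9.60 on the log2 scale) and HSF2 at -0.47. The HSF2 calls in H-23 and PANC-1 were lost in the joint fit (adjusted p 0.109 and 0.218), so their place in this pattern is weak. IER5 was not called in H-23 and fell in H-1299 despite the chaperone rise there. Across the 8 lines the log2 change of IER5 and that of the sum had Pearson r 0.77 and Spearman rho 0.50. Without H-929 and RPMI, r was -0.16 over 6 lines, so that relation rests on the myeloma lines.

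Under DMSO, lines with less HSBP1L1 had the larger HSPA1A and HSPA1B change (r -0.94, rho -0.81, 8 lines). Without H-929 and RPMI, r was -0.81 and rho weakened to -0.54. The HSF4 level under DMSO had r -0.81 and rho -0.76, and r -0.67 and rho -0.6 without H-929 and H-1299. For HSBP1 the sign turned, from -0.69 over 8 lines to 0.74 without the myeloma lines. For the HSF4 change it turned from 0.55 to -0.64 in the same way. The HSF2 change also turned sign, from 0.30 to -0.25 without H-1299 and RPMI, and its level moved from -0.31 to -0.54 without H-1299 and PANC-1. These are descriptions over lines that share their libraries with the HSPA1A and HSPA1B sum, and 2 lines per tumour type.

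Transcripts for proteins that hold or modify heat shock factors changed in both directions. On average over the lines 19.8% of all genes rose and 23.9% fell, the background for the counts that follow. These averages too carry the error between replicates only, and single lines could go the other way. Of 11 chaperones and co-chaperones that hold HSF1, 6 rose and 4 fell on average over the lines (median 0.08, all genes 0.02). This list is not separate from the HSF1-controlled chaperone genes counted above, as DNAJB1 is in both. DNAJB1 (1.10) and HSP90AA1 (0.67) led the rises, and FKBP5 (-0.46) and STUB1, a ubiquitin ligase that works with HSP70 (-0.26), fell most. FKBP5 was called lower in 3 lines and higher in 1. Of 17 kinases and PP2A subunits that act on HSF1, 3 rose and 10 fell (median -0.08), with CAMK2G at 0.73 and the kinase PIM2 at -0.49. PPP2CA, a catalytic subunit of the PP2A that IER5 recruits, rose in 4 lines, most in H-1299 (0.57), and fell in H-929 (-0.59) and RKO (-0.18). PPP2R2A, a regulatory subunit, rose in 3 lines and by no more than 0.27.

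Of 21 genes for acetylation, ubiquitin and SUMO attachment to heat shock factors, 4 rose and 13 fell on average (median -0.09). SKP1 (0.36) and FBXW7 (0.18), components of the ligase that removes HSF1, were among the rises. CDC20, a co-activator of the ligase that targets HSF2, was at -0.26 and SUMO2 at -0.35. Of 18 transcription partners, 4 rose and 9 fell (median -0.06), with CEBPB at 0.42 and SP1 at -0.29. CEBPB ran from -0.76 in H-1299 to 2.86 in RPMI, with 4 lines called higher and 2 lower. In H-929, 11 of these 18 partners fell and 1 rose (26.6% and 26.1% of all genes), and in H-1299, 11 of 17 rose and 2 fell (29.9% and 31.3%).

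Targets of p53 were followed because IER5 is one. CDKN1A, the cyclin-dependent kinase inhibitor, rose in H-929 (1.34), RPMI (1.24), H-1299 (1.16), H-23 (0.64) and CAPAN-2 (0.44). MDM2, the ubiquitin ligase for p53, rose in 5 lines by up to 0.76 in CAPAN-2 and fell in H-23 (-0.14). IER5 and CDKN1A both rose in CAPAN-2, H-929 and RPMI. They parted in H-1299, where CDKN1A rose and IER5 fell, in H-23, where CDKN1A rose and IER5 was not called, and in PANC-1, where IER5 rose and CDKN1A was at 0.09 (adjusted p 0.400).

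Among 10956 genes tested in all 8 lines, those whose 8 log2 fold changes were most like a member's were listed. For IER5 they were L3HYPDH (r 0.994), the small nucleolar RNA SNORD14E (0.992) and CREBZF (0.988), a bZIP transcription factor. For HSF2 they were KIF23 (0.993), a mitotic kinesin whose changes ran only from -0.69 to 0.07, ZUP1 (0.993) and ZNF234 (0.986). For HSF4 they were CHMP3 (0.989), DIS3L2 (0.980) and SEPTIN1 (0.980). For HSBP1 they were ANG (0.964), GORASP1 (0.962) and SMAD7 (0.959), and for HSBP1L1 they were ERCC6L (0.980), SMTN (0.979) and SLC25A3 (0.976). With 8 points and so many genes, high values are found for any pattern, and each member's list is a description.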

How the data were processed

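The deposited matrix holds the authors' raw counts of reads, unnormalised, 33892 rows by 48 libraries. Per the submitters' processing notes the tools were bcl2fastq 2.19, FastQC, Trimmomatic, HISAT2 and DESeq2 with build hg38; the counting program, annotation and use of strand are not given in the sources used here. Per the labels' protocols, RNA was extracted with Qiazol and libraries were stranded total RNA, while the design text speaks of mRNA. Counts need not be independent molecules, and depth covers counting error only. Rows that share an identifier (4803 rows, 1948 identifiers) are uncertain; the 8 rows of HSPA1A and HSPA1B were summed.

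Each line was tested on its 6 libraries with edgeR 4.0.16 (quasi-likelihood F test, TMM, filterByExpr) and Benjamini-Hochberg adjustment over all genes tested; calls are at 0.05. A joint fit of 48 libraries gave averages, differences between lines and the DMSO comparison. Intervals of 95% are normal intervals from the SE. The procedure was tested on simulated data, where the share of false calls in the single-line fits was above the nominal level in every line, so calls near the threshold are weak. The labels name biological replicates and do not say that a number marks a shared day, so the replicate number was not a block in the main fit. Same-numbered libraries deviated together weakly at most (r -0.12 to 0.10 over 24 pairs, 0 over 0.1). Of the 24 DMSO libraries, 11 correlated best with their own number, among them all those of H-23 and H-1299. Each was compared with only 3 carfilzomib libraries, so some would match their own number without any pairing. Replicates differed beyond sampling noise (lowest chi-square over its degrees of freedom, 3.47).

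The members and gene lists were chosen with earlier results of these data known. Named genes are the members, fixed heat shock, IER, PP2A and p53 genes, the 2 largest average changes in each direction per list, and the 3 genes most like each member (mean of at least 50 counts). Alternatives tried were DESeq2 1.42.0, other scalings and filters, a null fold change of 1.5, a replicate block, limma 3.58.1, summed identifiers, and leaving out each library, line or replicate number. Gene coordinates are from GENCODE 29. Marker NKX2-1 was not analysed here.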

Additional observations from a re-analysis of the deposited data

Results flagged for a closer look

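The tested differences of the carfilzomib response between the lines of 1 tumour type (edgeR's quasi-likelihood test, adjusted over all genes) are the results singled out here. For HSF2, the log2 fold change was 1.14 higher in H-1299 than in H-23 (adjusted p 5.26e-10). In the pancreatic pair HSF2 was 0.63 higher in CAPAN-2 than in PANC-1 (adjusted p 1.90e-04). In the myeloma pair HSF2 differed by -1.497, H-929 minus RPMI (adjusted p 9.23e-11). In the same joint fit HSF2 fell in H-929 (-0.63, adjusted p 3.38e-05), a fall that missed the threshold in the fit of that line alone (-0.47, adjusted p 0.0503). HSBP1 and HSBP1L1 in H-929 also stood lower in the joint fit. On its scaling the rises of IER5 and HSF4 in H-929 were smaller too, and the part of scaling in these shifts was not tested.

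The myeloma lines differed for 4 of the 5 members measured by single rows, as did 40.5% of all genes. IER5 was 2.14 higher in H-929 than in RPMI (adjusted p 8.46e-18), HSBP1 was 0.78 higher (adjusted p 2.22e-06) and HSBP1L1 was 2.03 higher (adjusted p 0.00119). The HSBP1L1 difference rests on 2 to 50 counts per library.

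The second HSF1 row had a log2 fold change 4.29 higher in CAPAN-2 than in PANC-1 (adjusted p 0.00630). Without the replicates numbered 2 that difference was 2.50 (adjusted p 0.306). Its counts ran from 11 to 874 over those 12 libraries, and replicates within a group differed widely.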

How the results depend on the processing

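Over the alternatives, 1164 single values were recomputed: 1089 kept their direction and side of the threshold, 43 lost their call, 31 gained one and 1 reversed. The 1089 include 21 values that were not called and changed sign. Calls higher went from 15 to 7 with a null fold change of 1.5. Calls lower went from 3 to 5 with library totals, to 7 with no filter and to 5 in one joint fit, where calls higher went from 15 to 12 (HSF2 in H-23 and PANC-1 and HSBP1L1 in PANC-1 were lost). The Wald test of DESeq2 and summed identifiers each gave 15 higher calls and added HSBP1 lower in RKO. A mean of at least 50 counts gave 16 higher, with HSF4 in DLD-1 added, and also passed HSF4 lower in H-23. That filter left out HSBP1L1 in RPMI, 1 of the 3 lower calls of the main fits. DESeq2's size factors changed no single-line call of the 5 members. Members called higher on average went from 3 to 0 with lines as units in limma. Members called lower on average went from 2 to 1 without replicates numbered 2, and to 0 without RPMI or with lines as units. The average of HSBP1L1 reversed to 0.0451 without RPMI (adjusted p 0.664). For the counts of averages lower, fits without 1 replicate number gave 1 to 2. The cause of these changes was not tested, beyond the fewer lines or the stricter null in the construction. With the replicate number as a block, calls were 15 higher and 4 lower (HSBP1 in RKO was added), and the averages 3 higher and 2 lower. Differences within tumour types went from 6 to 7 with the block, IER5 in the pancreatic pair being added (0.32, adjusted p 0.0460). Of 24 DMSO libraries, 11 correlated best with their own number among 3 carfilzomib libraries, as some would without any pairing. Library totals moved the median of all genes in H-1299 from -0.01 to -0.13 and in the myeloma difference from 0.04 to 0.13, where HSF4 passed at 0.52 (adjusted p 0.0379). Depth limits HSBP1L1 in the myeloma lines, with 2 to 50 counts per library.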
